A study of Homo sapiens with 8 samples.

Results

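The circadian clock genes examined here were 10 genes given by name: the activators ARNTL (also called BMAL1) and CLOCK, the repressors PER1, PER2, PER3, CRY1 and CRY2, the nuclear receptors NR1D1 and NR1D2 (REV-ERB alpha and beta), and the output factor DBP. They were 10 of the 23228 genes counted in each library, and all 10 passed the filter on low counts, which left 13694 genes for testing. The circadian clock is a feedback loop found in most cells of the body. The proteins ARNTL and CLOCK pair and bind E-box sequences in DNA, where they turn on the PER, CRY, NR1D and DBP genes. The PER and CRY proteins then return to the nucleus and block that pair, while NR1D proteins bind ROR elements and repress ARNTL, so that the transcripts rise and fall over the day when cells are synchronised. DBP binds D-box sequences and passes the rhythm to other genes.

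RNA-seq was performed in BT-549, an established human triple negative breast cancer line, after 24 h with vehicle (DMSO), with 100 nM EC359, with 10 µM vorinostat, or with EC359 and vorinostat together at these doses (the combination). EC359 inhibits the leukemia inhibitory factor receptor (LIFR), and vorinostat inhibits histone deacetylases (HDACs), enzymes that remove acetyl groups from histones and other proteins. Each group had 2 libraries, 8 in all, from a single cell line. The study describes its in vitro assays in general as done in biological replicates, but neither the labels nor the RNA-seq methods say what separates the 2 libraries of a group, so each p-value measures only the spread between these libraries, which may be technical. All cells were in medium with serum, synchronisation of the cells is not mentioned, and there was a single time of collection, so rhythm, phase and amplitude were not measured. The libraries held 19069450 to 24759041 reads on genes. Within a group, the SD of the log2 difference between the 2 libraries over tested genes was lowest in the vorinostat pair (0.31), followed by vehicle (0.35) and the combination (0.45), and the EC359 pair was the least alike (0.56). The mesenchymal markers VIM, CDH2 and ZEB1 were present in all libraries (lowest group means 2111, 23.7 and 44.7 CPM, the reads of a gene scaled to a common library total). The hormone receptors ESR1 and PGR had group means of at most 0.793 and 0.0255 CPM (highest single libraries 1.02 and 0.051). The epithelial markers CDH1 and EPCAM had group means of at most 1.34 and 3.20 CPM (highest single libraries 2.21 and 4.27).

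The sequences before the transcription start were examined for the elements through which clock factors act on each other. All 10 genes matched RefSeq promoter windows of 300 bases (250 before and 50 after the start, 15 windows in all, GRCh38.p14), and the motifs were searched on both strands. The 4 windows below were chosen because PER1, ARNTL and NR1D1 had the largest differences from vehicle and NR1D2 held the most matches. The 250 bases before the start are shown for NR1D1 (chr17:40100590-40100839, minus strand), NR1D2 (chr3:23945871-23946120, plus strand) and PER1 (chr17:8152405-8152654, minus strand), and 30 bases are shown for ARNTL (chr11:13277809-13277838, plus strand). Each is written 5′ to 3′ along the strand of its gene, and capitals mark the matches described next.
NR1D1: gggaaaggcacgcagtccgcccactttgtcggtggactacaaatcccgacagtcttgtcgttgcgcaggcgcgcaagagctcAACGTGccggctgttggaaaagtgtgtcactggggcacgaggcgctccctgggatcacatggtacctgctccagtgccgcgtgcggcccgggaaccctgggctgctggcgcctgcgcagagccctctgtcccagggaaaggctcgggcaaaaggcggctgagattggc
NR1D2: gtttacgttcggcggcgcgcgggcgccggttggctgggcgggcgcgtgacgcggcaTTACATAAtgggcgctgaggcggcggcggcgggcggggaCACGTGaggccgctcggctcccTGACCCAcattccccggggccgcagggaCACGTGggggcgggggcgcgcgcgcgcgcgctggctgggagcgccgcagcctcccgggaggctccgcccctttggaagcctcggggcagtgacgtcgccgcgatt
PER1: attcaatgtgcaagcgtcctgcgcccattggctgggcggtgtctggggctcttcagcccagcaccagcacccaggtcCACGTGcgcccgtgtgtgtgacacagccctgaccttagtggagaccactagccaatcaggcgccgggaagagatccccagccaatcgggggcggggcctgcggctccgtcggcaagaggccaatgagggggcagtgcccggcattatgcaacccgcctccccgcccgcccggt
ARNTL: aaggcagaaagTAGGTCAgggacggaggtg

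The E-box CACGTG occurred in 7.26% of 35116 RefSeq promoter windows of the same length. Of the 15 windows of the clock genes, 2 held it, from 2 of the 10 genes, at -173 in PER1 and at -155 and -105 in NR1D2. The variant CACGTT, held by 5.34% of all windows, was found in 5 of the 15, from CLOCK, CRY1, CRY2, NR1D1 and PER2, with the NR1D1 match at -168. Some clock genes had more than 1 window, and each gene named here or below held the motif in 1 of its windows. The ROR element TAGGTCA, held by 1.85% of windows, was found in ARNTL and CRY2, and its other form TGGGTCA, held by 3.92%, in CLOCK and NR1D2. The ARNTL match lay at +31. Of the D-box forms, TTATGTAA (0.886% of windows) was found in NR1D2 and PER3, and TTACGTAA (0.125%) in PER2. The cyclic AMP element TGACGTCA, held by 1.85% of windows, was found in none of the 10. DBP held none of the 7 motifs in its window. A match is a description of the letters in the window, and no binding was measured in these libraries.

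Vorinostat moved most of the clock genes, in both directions and unevenly within each family, whereas EC359 alone raised 1 of them, NR1D1. A gene was called when the edgeR adjusted p was under 0.01 and the log2 fold change exceeded 1 in either direction. With vorinostat, 4 of 10 clock genes were called higher (PER1, CRY2, ARNTL and DBP) where 16.8% of all tested genes were, and 3 were called lower (PER2, PER3 and CLOCK) where 13.3% were. With EC359, 1 was called higher (NR1D1, beside 1.94% of all tested genes) and 0 lower (1.72%), and DESeq2 also called NR1D1 alone. In that comparison 5 members, NR1D1 included, had an unadjusted edgeR p under 0.05. The share of all tested genes under that limit was not computed in any comparison, so such counts are not read as an excess. With the combination, 6 were called higher than vehicle (19.5% of all tested genes) and 2 lower (15.3%). These comparisons share the vehicle libraries, so their values are given side by side and not as independent results. In bulk RNA, a difference in RNA per cell and a difference in the share of cells that express a gene cannot be told apart.

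**Figure D1:**
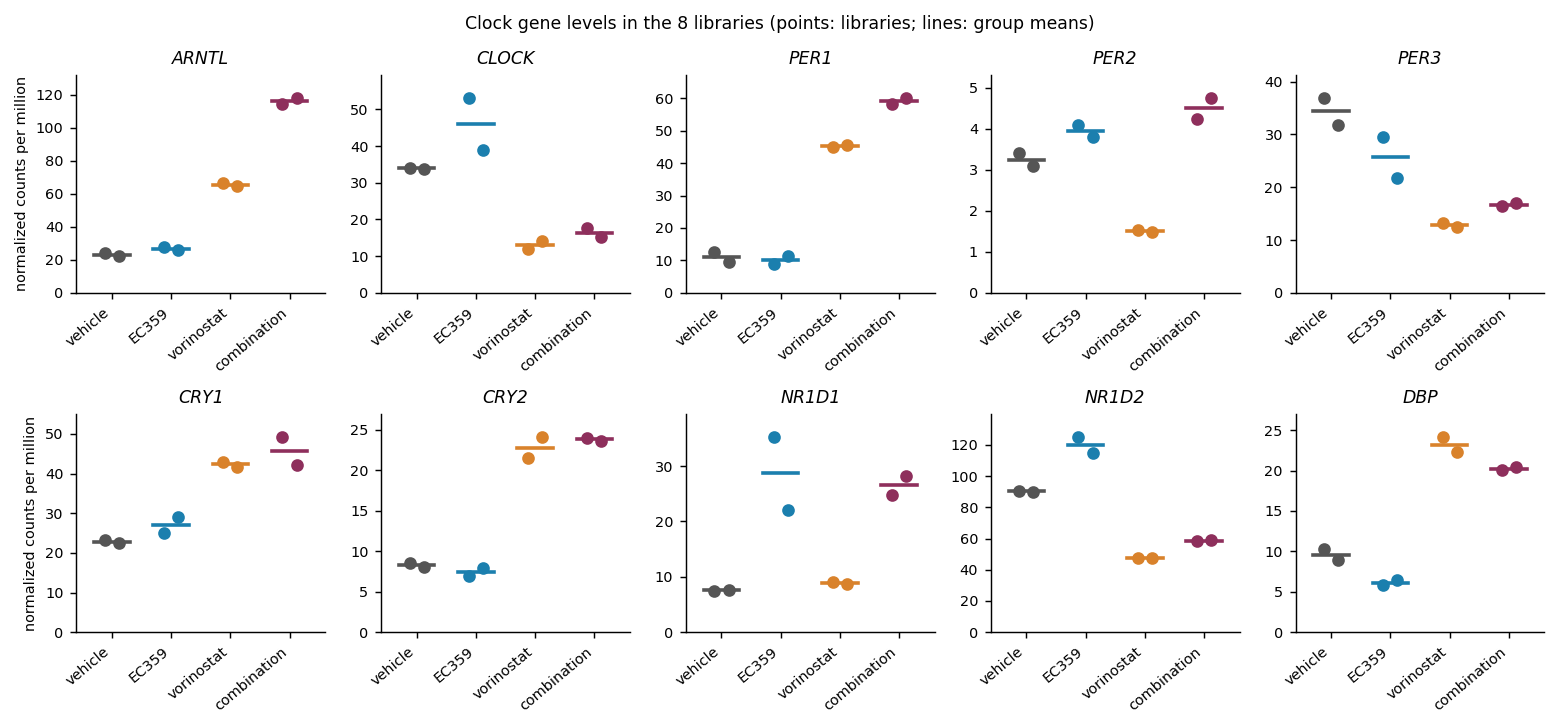
Normalized level in CPM of the 10 clock genes in each of the 8 libraries, 1 panel per gene with its own axis starting at 0, with points for libraries and a bar at each group mean. NR1D1 is high in both libraries with EC359 and both with the combination (22.1 to 35.2 CPM), whereas PER1 is high in the 4 libraries with vorinostat (45.0 to 60.1 CPM).

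The activators moved in opposite directions. ARNTL (chromosome 11, 13298199 to 13408813, plus strand, GRCh37), the partner without which the loop does not run, stood at 24.2 and 22.2 CPM with vehicle, 27.5 and 26.1 with EC359, 66.5 and 64.8 with vorinostat, and 114 and 118 with the combination. The 4 groups did not overlap. ARNTL was 2.83-fold higher with vorinostat (log2 1.50, SE 0.10, edgeR adjusted p = 2.2e-06) and 5.01-fold higher with the combination than with vehicle (log2 2.33, SE 0.10, edgeR adjusted p = 1.6e-07). The combination exceeded vorinostat by 0.83 on the log2 scale (SE 0.09, edgeR adjusted p = 4.1e-04), under the fold threshold, while EC359 alone differed from vehicle by 0.21 (SE 0.10, edgeR adjusted p = 0.18).

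CLOCK (chromosome 4, 56294070 to 56413076, minus strand, GRCh37) encodes the other partner of the activator. It stood at 34.1 and 33.9 CPM with vehicle, 53.2 and 39.0 with EC359, 11.9 and 14.0 with vorinostat, and 17.6 and 15.3 with the combination. Every library with vorinostat, alone or combined, was below every library without it. The fall was 2.61-fold with vorinostat (log2 -1.39, SE 0.17, edgeR adjusted p = 1.0e-04) and 2.07-fold with the combination (log2 -1.05, SE 0.17, edgeR adjusted p = 4.7e-04), and the EC359 difference of 0.44 did not pass (SE 0.16, edgeR adjusted p = 0.10). CLOCK shares 25495 bases with TMEM165 on the opposite strand. Here and for the genes below, shared bases are those of whole gene spans, introns included, and the overlap of exons was not computed. TMEM165 had group means of 96.0, 95.1, 67.9 and 62.6 CPM in the same order of groups, and whether the counting used strand is not stated, so reads in the shared bases cannot be assigned.

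The balance of the ARNTL and CLOCK transcripts therefore shifted, while their proteins were not measured in these libraries. Per kilobase of transcript, ARNTL exceeded CLOCK by a ratio of 2.66 and 2.46 in the vehicle libraries and 1.94 and 2.52 in the EC359 libraries. The ratio was 20.9 and 17.3 with vorinostat and 24.5 and 29.0 with the combination. The lowest ratio with vorinostat present was far above the highest without it, and the ratio does not depend on how libraries are scaled. No test was run on it.

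Among the PER genes, whose proteins carry the repressor complex into the nucleus, PER1 rose while PER3 and PER2 fell. PER1 (chromosome 17, 8043790 to 8059824, minus strand, GRCh37) stood at 12.7 and 9.44 CPM with vehicle, 8.74 and 11.4 with EC359, 45.0 and 45.5 with vorinostat, and 58.1 and 60.1 with the combination. The vehicle and EC359 libraries overlapped, and all libraries with vorinostat lay above them. The rise was 4.10-fold with vorinostat (log2 2.03, SE 0.17, edgeR adjusted p = 8.5e-06) and 5.35-fold with the combination (log2 2.42, SE 0.17, edgeR adjusted p = 2.3e-06). The combination differed from vorinostat by 0.39 (SE 0.16, edgeR adjusted p = 0.098).

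PER3 (chromosome 1, 7844351 to 7905237, plus strand, GRCh37) was the most abundant PER transcript with vehicle. It stood at 36.9 and 31.8 CPM with vehicle, 29.6 and 21.8 with EC359, 13.3 and 12.5 with vorinostat, and 16.4 and 17.1 with the combination. Libraries with vorinostat were below all others. PER3 fell 2.67-fold with vorinostat (log2 -1.42, SE 0.17, edgeR adjusted p = 7.4e-05) and 2.06-fold with the combination (log2 -1.04, SE 0.16, edgeR adjusted p = 4.1e-04). The combination call rested on the fold threshold, since without vehicle replicate 1 the log2 difference was -0.94. UTS2, which shares 2095 bases with PER3 on the opposite strand, had 0 counts in every library. Other overlapping genes were not found by name among the counted genes. PER3 shares 17101 bases with a noncoding RNA gene on the opposite strand, and PER2 shares 11590 and 976 bases with others. PER1 shares 5691 bases with a protein-coding gene on the same strand, and ARNTL, CLOCK and CRY1 have smaller overlaps of this kind. Reads in these bases cannot be assigned.

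PER2 (chromosome 2, 239152685 to 239198743, minus strand, GRCh37), the least abundant member per kilobase in every group, was lower with vorinostat alone but not with the combination. It stood at 3.40 and 3.08 CPM with vehicle, 4.08 and 3.80 with EC359, 1.54 and 1.49 with vorinostat, and 4.25 and 4.75 with the combination. The vorinostat libraries were below all others and the combination libraries above all others. PER2 fell 2.14-fold with vorinostat (log2 -1.09, SE 0.24, edgeR adjusted p = 0.0029) and was 2.96-fold higher with the combination than with vorinostat (log2 1.57, SE 0.23, edgeR adjusted p = 0.0016). The combination differed from vehicle by 0.47 (SE 0.21, edgeR adjusted p = 0.077). These are shallow counts, as low as 30 reads in a library. The call with vorinostat was lost when any vehicle or vorinostat library was left out (edgeR adjusted p from 0.012 to 0.028).

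The PER transcripts thus changed places. PER1 made up 29.9% and 26.9% of the summed PER level per kilobase in the vehicle libraries, 26.1% and 37.7% with EC359, 80.5% and 81.6% with vorinostat, and 79.3% and 79.0% with the combination. PER3 went the other way, from 64.2% and 66.6% with vehicle to 17.5% and 16.4% with vorinostat and 16.4% and 16.5% with the combination. With EC359 it held 64.9% and 53.1%. PER2 held 5.89% and 6.44% of the sum with vehicle, 8.94% and 9.24% with EC359, 2.02% and 1.96% with vorinostat, and 4.25% and 4.57% with the combination.

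The CRY genes encode the direct blockers of the ARNTL and CLOCK pair, and both moved upward with vorinostat. CRY2 (chromosome 11, 45868669 to 45904799, plus strand, GRCh37) stood at 8.59 and 7.99 CPM with vehicle, 6.93 and 7.96 with EC359, 21.4 and 24.1 with vorinostat, and 24.0 and 23.6 with the combination. The vorinostat and combination libraries overlapped and lay above the rest. The rise was 2.75-fold with vorinostat (log2 1.46, SE 0.14, edgeR adjusted p = 2.3e-05) and 2.87-fold with the combination (log2 1.52, SE 0.14, edgeR adjusted p = 1.4e-05). CRY1 (chromosome 12, 107385142 to 107487327, minus strand, GRCh37) stood at 23.1 and 22.4 CPM with vehicle, 24.9 and 29.1 with EC359, 43.1 and 41.7 with vorinostat, and 49.2 and 42.1 with the combination. Its rise was smaller, 1.86-fold with vorinostat (log2 0.89, SE 0.13, edgeR adjusted p = 2.3e-04), which passed the p but not the fold threshold. With the combination it was 2.00-fold (log2 1.00, SE 0.13, edgeR adjusted p = 9.6e-05), a call at the very edge of the fold threshold that most alternatives removed (0.84 to 1.00). The intervals for the combination against vorinostat did not exclude a difference of 0 for CRY1 (log2 0.11, SE 0.12) or CRY2 (log2 0.06, SE 0.13).

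The NR1D genes, whose products repress ARNTL transcription, differed in their response to each drug. NR1D1 (chromosome 17, 38249046 to 38256842, minus strand, GRCh37) stood at 7.51 and 7.66 CPM with vehicle, 35.2 and 22.1 with EC359, 9.00 and 8.63 with vorinostat, and 24.8 and 28.2 with the combination. Every library with EC359 was above every library without it, and the EC359 pair was the most spread of any member in any group (log2 difference 0.67). NR1D1 rose 3.79-fold with EC359 (log2 1.92, SE 0.22, edgeR adjusted p = 4.3e-04) and 3.49-fold with the combination (log2 1.80, SE 0.22, edgeR adjusted p = 6.8e-05), and was 3.01-fold higher with the combination than with vorinostat (log2 1.59, SE 0.21, edgeR adjusted p = 0.0010). Vorinostat alone differed from vehicle by 0.22 (SE 0.22, edgeR adjusted p = 0.41). With the vehicle and EC359 libraries fitted on their own, the EC359 difference was 1.94 and the edgeR adjusted p was 0.012, past the 0.01 limit.

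NR1D1 shares 1075 bases with THRA, the thyroid hormone receptor alpha gene, on the opposite strand. THRA stood at 16.1 and 19.3 CPM with vehicle, 15.5 and 12.1 with EC359, 35.4 and 35.9 with vorinostat, and 28.3 and 25.8 with the combination. The THRA difference from vehicle was -0.35 on the log2 scale with EC359 (edgeR adjusted p = 0.16) and 1.01 with vorinostat. Reads in the shared bases cannot be assigned, and their part in the NR1D1 values was not tested.

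NR1D2 (chromosome 3, 23986777 to 24022108, plus strand, GRCh37) had the highest level per kilobase of all members with vehicle and with EC359. It stood at 90.7 and 89.9 CPM with vehicle, 125 and 115 with EC359, 47.6 and 47.4 with vorinostat, and 58.2 and 59.0 with the combination. The 4 groups did not overlap. The log2 difference was -0.93 with vorinostat (SE 0.09, edgeR adjusted p = 2.3e-05) and -0.62 with the combination (SE 0.09, edgeR adjusted p = 2.2e-04), so both passed the p but not the fold threshold. EC359 alone differed by 0.41 (SE 0.09, edgeR adjusted p = 0.014). Within the summed NR1D level per kilobase, NR1D1 held 14.1% and 14.5% with vehicle, 35.9% and 27.7% with EC359, 27.3% and 26.6% with vorinostat, and 45.8% and 48.8% with the combination. The 1306 bases that NR1D2 shares with NKIRAS1 on the opposite strand cannot be assigned. NKIRAS1 moved the other way, from a mean of 12.3 CPM with vehicle to 31.7 with vorinostat.

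The output factor DBP (chromosome 19, 49133287 to 49140636, minus strand, GRCh37) followed vorinostat. It stood at 10.2 and 8.92 CPM with vehicle, 5.77 and 6.49 with EC359, 24.1 and 22.3 with vorinostat, and 20.0 and 20.5 with the combination. The 4 groups did not overlap, with EC359 lowest and vorinostat highest. The rise was 2.42-fold with vorinostat (log2 1.28, SE 0.14, edgeR adjusted p = 4.9e-05) and 2.11-fold with the combination (log2 1.08, SE 0.14, edgeR adjusted p = 1.2e-04). The EC359 difference of -0.65 passed neither threshold (SE 0.15, edgeR adjusted p = 0.019). DBP shares 688 bases with SPHK2, whose group means ran from 25.1 to 32.0 CPM.

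**Figure D2:**
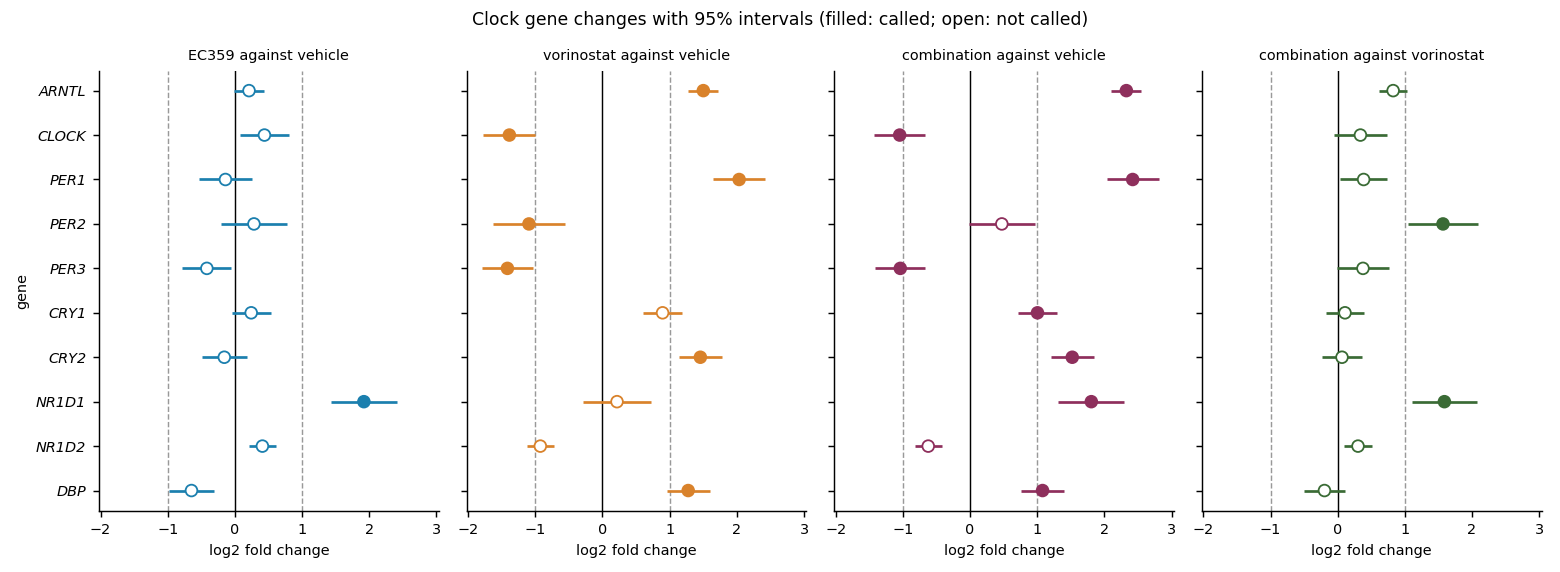
Log2 fold changes of the 10 clock genes in 4 comparisons, the 3 treatments against vehicle and the combination against vorinostat, with points for the edgeR estimates (filled where called) and bars for their 95% intervals. ARNTL and CLOCK lie on opposite sides of 0 with vorinostat (1.50 and -1.39), and NR1D1 is the member furthest from 0 with EC359 (1.92).

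The question of what each drug added to the other was taken up with the remaining comparisons. Adding EC359 to vorinostat raised 2 of the 10 clock genes, PER2 and NR1D1 (3.37% of all tested genes were called higher), and lowered 0 (0.876%), with the same counts from DESeq2. At an unadjusted p under 0.05 there were 5 members, a count without a share of all tested genes to set beside it. DBP was the single member with a negative difference (log2 -0.20, SE 0.14, edgeR adjusted p = 0.31). Both calls were lost when any one vorinostat or combination library was left out (edgeR adjusted p from 0.010 to 0.030). Adding vorinostat to EC359 raised 4 (PER1, CRY2, ARNTL and DBP; 19.8% of all tested genes) and lowered 2 (CLOCK and NR1D2; 13.9%). ARNTL was 4.33-fold higher with the combination than with EC359 (log2 2.12, SE 0.10, edgeR adjusted p = 3.2e-07), and PER1 was 5.90-fold higher (log2 2.56, SE 0.17, edgeR adjusted p = 2.1e-06). NR1D1 differed by -0.12 between these groups (SE 0.20, edgeR adjusted p = 0.63), and its libraries overlapped. The NR1D2 call (log2 -1.03, SE 0.09, edgeR adjusted p = 9.8e-06) was lost at -0.99 without EC359 replicate 1.

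Whether EC359 acted differently with and without vorinostat was tested by the interaction of the 2 drugs on the log2 scale. No clock gene passed an edgeR adjusted p of 0.01, either above 0 (1.62% of all tested genes passed) or below (0.482%). DESeq2 called 0. At an unadjusted p under 0.05 there were 3, all above 0, again without a share of all tested genes under that limit. They were PER2 (1.28, SE 0.32, edgeR adjusted p = 0.046), ARNTL (0.61, SE 0.14, edgeR adjusted p = 0.031) and PER3 (0.79, SE 0.23, edgeR adjusted p = 0.082). Without EC359 replicate 1, PER3 (1.03) and ARNTL (0.65) passed, and without EC359 replicate 2, ARNTL (0.57) passed. For NR1D1 the interaction was -0.33 (SE 0.30, edgeR adjusted p = 0.58).

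Over the 10 genes as a list, the median log2 fold change against vehicle was 0.23 with EC359 (-0.02 over all tested genes), 0.56 with vorinostat (0.03) and 1.04 with the combination (0.07). For the combination against vorinostat the list median was 0.36 beside -0.01 for all tested genes, and against EC359 it was 0.47 beside 0.06. With members on both sides of 0, the median conceals the opposing directions described above.

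Compared per kilobase of transcript, the order of the clock genes was rearranged by vorinostat. Each length was that of 1 chosen transcript per gene, so the order of close neighbours depends on that choice. With vehicle it ran NR1D2, ARNTL, CRY1, PER3, DBP, CLOCK, NR1D1, PER1, CRY2 and PER2, and only the neighbours PER1 and CRY2 overlapped between libraries. With EC359, NR1D1 stood next to NR1D2 at the top, although its libraries overlapped those of ARNTL. With vorinostat it ran ARNTL, CRY1, DBP, PER1, NR1D2, CRY2, NR1D1, PER3, CLOCK and PER2, with no overlap between neighbours. With the combination ARNTL again led, followed by CRY1, PER1 and NR1D2, and only NR1D1 and DBP overlapped as neighbours. In both groups with vorinostat, CLOCK and PER3 stood directly above PER2, at the bottom of the order.

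**Figure D3:**
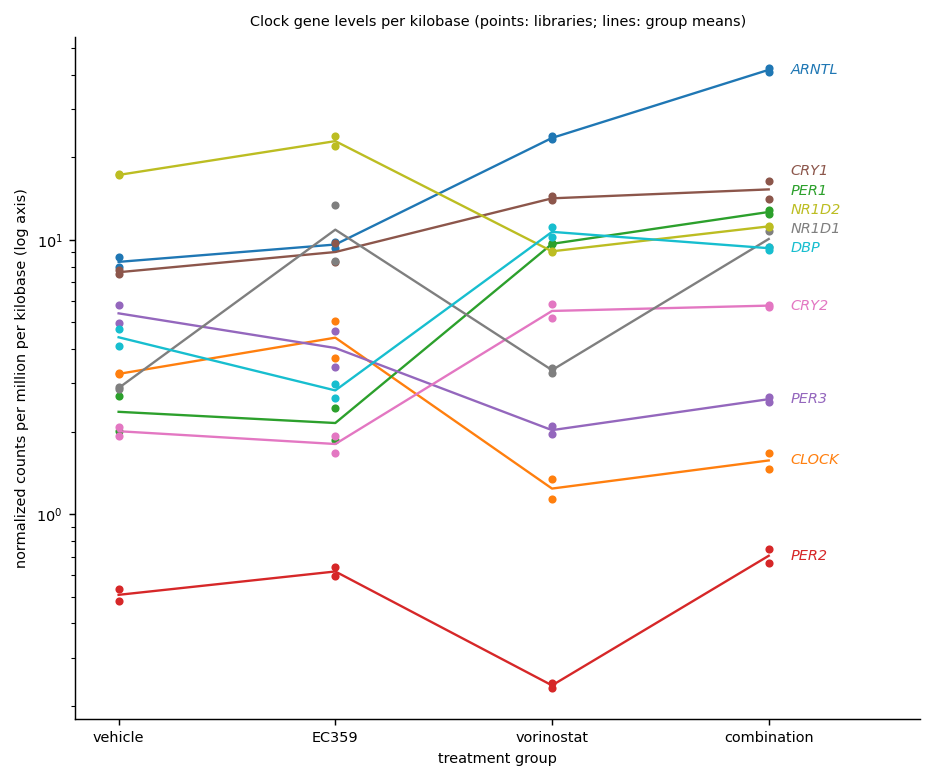
Level in CPM per kilobase of transcript of the 10 clock genes in the 4 groups, on a log axis, with points for libraries and lines joining the group means of a gene. ARNTL and CLOCK part at vorinostat, where their ratio is 20.9 and 17.3 in the 2 libraries against 2.66 and 2.46 with vehicle.

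Each clock gene was also set beside the tested gene whose log2 CPM profile over the 8 libraries was nearest, by Euclidean distance between profiles centred on their own means, among about 9975 expressed genes. The nearest gene to NR1D1 was BCL6, a transcriptional repressor (distance 0.496), and the nearest to PER2 was ICAM1, a cell adhesion molecule (0.301). ARNTL was nearest to LRRC8B (0.220), CLOCK to RSF1 (0.296), PER1 to C17orf103 (0.421) and PER3 to ST7 (0.298). CRY1 was nearest to ATP6V1C1 (0.151), CRY2 to PXK (0.225), NR1D2 to CHST10 (0.148) and DBP to LRP1 (0.247). The median distance from a clock gene to all candidates was 1.64 to 3.51. Among the clock genes themselves the closest pairs were CRY2 with DBP (0.594) and CLOCK with NR1D2 (0.715), and NR1D1 had no member nearer than 1.79. The 8 points are 4 groups of 2, so these distances describe group means more than single libraries.

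A wider list of 34 clock genes around the loop, which holds paralogs, kinases, ubiquitin enzymes, cofactors and output genes, was read in the same fit. Of these, 30 were tested, and the rest fell below the filter on low counts. With vorinostat 4 of the 30 rose and 5 fell, near the shares of all tested genes (16.8% and 13.3%). BHLHE41, a repressor that competes at E-boxes, rose from 1.75 and 1.49 CPM to 10.9 and 9.48 (log2 2.65, SE 0.24, edgeR adjusted p = 1.3e-05), and USP2, a ubiquitin protease, rose by a like amount (log2 2.77). NFIL3, which competes with DBP at D-boxes, and HDAC3, the deacetylase recruited by NR1D proteins, also rose (log2 1.06 and 1.28). Those that fell were CSNK1D (-1.41), a kinase of PER proteins, NCOR1 (-1.10), the corepressor that bridges NR1D proteins and HDAC3, the acetyltransferase CREBBP (-1.32), TIMELESS (-1.10) and the cell cycle kinase WEE1 (-1.43). HDAC3 and NCOR1, which work in 1 complex, thus moved oppositely.

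With the combination 7 of the 30 genes rose and 4 fell, again near the shares of all tested genes (19.5% and 15.3%). Those that rose were BHLHE41, USP2, NFIL3, HDAC3, HLF, NAMPT and SIRT1, and those that fell were TIMELESS, CSNK1D, NCOR1 and CREBBP. SIRT1, a deacetylase of ARNTL and PER2 that depends on the cofactor NAD, stood at 81.3 and 78.0 CPM with vehicle, 86.1 and 82.7 with EC359, 107 and 106 with vorinostat, and 426 and 395 with the combination. NAMPT, which acts in the synthesis of that cofactor, stood at 148 and 139, 296 and 190, 168 and 179, and 539 and 507. Both were highest with the combination, with no overlap with any other group. SIRT1 was the only gene of the 30 with an interaction that passed (log2 1.86, SE 0.12, edgeR adjusted p = 1.2e-04). Of all tested genes, 1.62% passed above 0 and 0.482% below. The HLF rise (log2 3.02, SE 0.77, edgeR adjusted p = 0.0063) rested on counts of 2 to 27 reads and was called in 10 of 16 settings, the reported one included. Without combination replicate 2 it was 2.28 (edgeR adjusted p = 0.059), and the call was also lost without either vehicle library, without either vorinostat library and with the replicate block (edgeR adjusted p from 0.012 to 0.059). CSNK1D, called at the edge of the fold threshold, was short of it without combination replicate 1 (-0.96) and with the filter of 1 CPM in 2 libraries (-0.98), and NCOR1 (-1.05) without vehicle replicate 1 (-0.97).

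With EC359 alone 0 of the 30 were called by edgeR (1.94% of all tested genes were called higher and 1.72% lower), and DESeq2 called 1. An unadjusted edgeR p under 0.05 was reached by 10 of the 30. The share of all tested genes under that limit was not computed, so this count is not read as an excess. ARNTL2, the paralog of ARNTL, was the nearest to a call, at 33.2 and 33.4 CPM with vehicle and 63.9 and 68.9 with EC359 (log2 1.00, just under the threshold, SE 0.12, edgeR adjusted p = 5.4e-04). Over 17 settings its log2 difference was 0.95 to 1.05, and it was called in 9 of them, among them edgeR with RLE size factors, and was chosen for mention after its values were seen. Against vorinostat, the combination raised 3 of the 30 and lowered 0 (3.37% and 0.876% of all tested genes): SIRT1 (1.95), NAMPT (1.59) and the repressor BHLHE40 (1.20, likewise named after its values were seen). Medians of the wider list were 0.19 with EC359, -0.25 after vorinostat and 0.24 where both drugs were given.

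**Figure D4:**
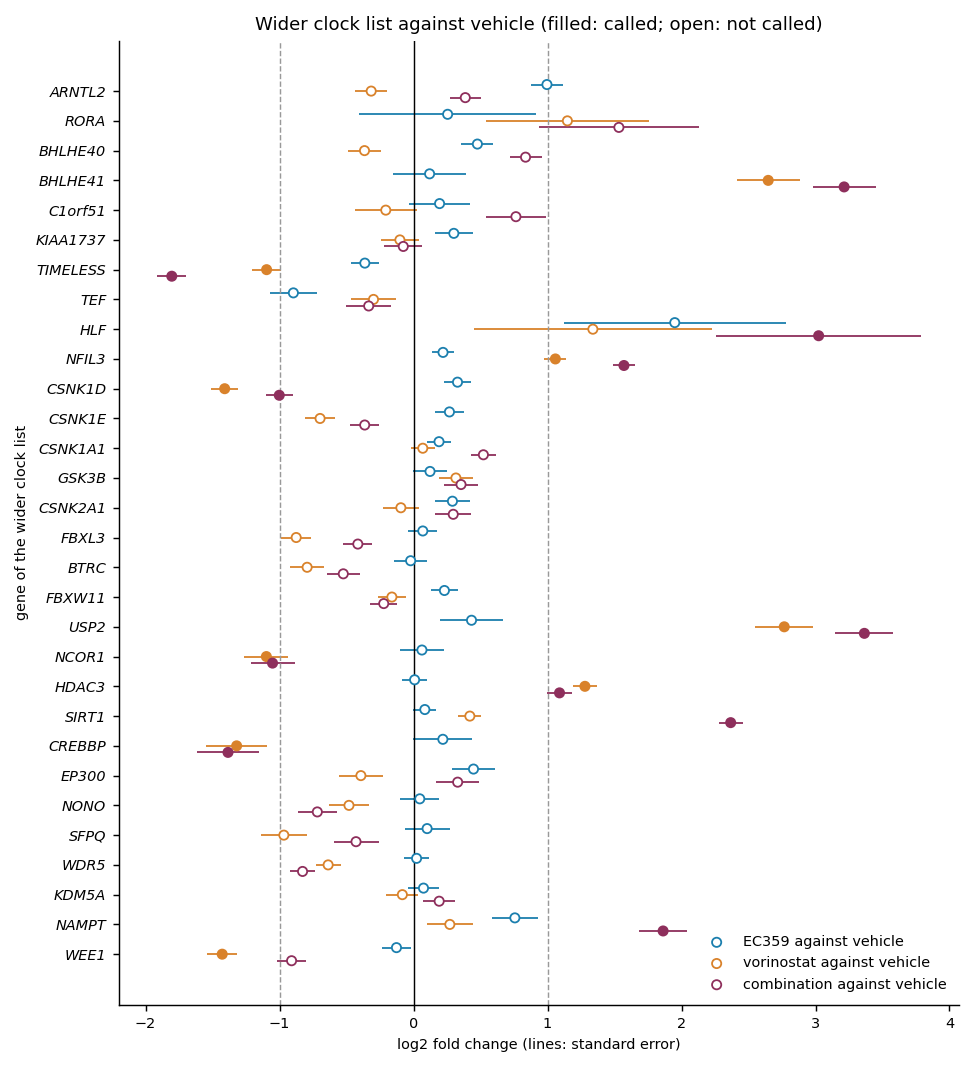
Log2 fold changes against vehicle of the 30 tested genes of the wider clock list, with 1 marker per treatment (filled where the gene was called) and lines for the standard error; C1orf51 and KIAA1737 are the older symbols of CIART and CIPC. SIRT1 is called with the combination alone (2.37), and USP2 and BHLHE41 lie furthest to the right with vorinostat (2.77 and 2.65).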

How the data were processed

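Total RNA of BT-549 cells was sequenced as 50 bp single-end TruSeq reads on an Illumina instrument. The authors aligned reads to hg19 with TopHat2 (2.0.8b in the submitters' processing notes) and counted RefSeq genes with HTSeq, and deposited raw read counts per gene; the HTSeq version and its strand setting are not given in the sources used here. Counts were tested with edgeR 4.0.16 (R 4.3.3): TMM scaling, filterByExpr by group (23228 genes to 13694), glmQLFit over all 8 libraries and glmQLFTest for 5 comparisons and the interaction, with Benjamini-Hochberg adjustment over all tested genes. A gene was called where the adjusted p lay below 0.01 and the log2 fold change beyond 1 in size (the interaction, by the p alone). SE is the absolute log2 fold change over the square root of F. CPM use TMM library sizes. Levels between genes are per kilobase of exons of 1 transcript per gene, the one marked MANE Select in GENCODE on GRCh37. Promoters are RefSeq on GRCh38.p14. The libraries held 19069450 to 24759041 gene counts; rows for unassigned reads were left out of library sizes and tests.

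The members and lists were chosen with earlier results of these data known. All 10 members are named; of the wider list, genes called against vehicle may be given, and 1 of its genes is not reported here; the most similar gene had the smallest distance among genes of average log2 CPM of at least 3. The tests were checked on simulated counts. Alternatives were DESeq2 1.42.0, other scalings and filters, a replicate block, 4 libraries, other thresholds and leaving out each library.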

Additional observations from a re-analysis of the deposited data

Results flagged for a closer look

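SIRT1, in the wider clock list, was flagged because the effect of EC359 differed with and without vorinostat by a test of that difference, the interaction on the log2 scale (1.86, SE 0.12, edgeR adjusted p = 1.2e-04). Of all tested genes, 1.62% passed that test above 0 and 0.482% below. EC359 changed SIRT1 by 0.08 without vorinostat and by 1.95 with it, and both combination libraries lay above all others.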

How the results depend on the processing

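Of 1060 values of the clock genes under the alternatives, 1012 kept their direction and their side of the threshold, 29 lost a call, 11 gained one and 8 changed sign. The settings with no fold threshold and with an adjusted p under 0.05 reuse the reported estimates, so their values could only gain a call. With the vehicle and EC359 libraries alone, the number called with EC359 was 0. At an adjusted p under 0.05, 2 interactions passed (ARNTL and PER2). Leaving out 1 library at a time gave 0 to 2 clock genes called for the combination against vorinostat and 0 to 2 for the interaction. Changes of sign were among differences that were not called: CRY2 in the combination against vorinostat was -0.024 with total counts and -0.059 to 0.11 when 1 library was left out, CRY1 in that comparison -0.044 to 0.17, PER1 with EC359 -0.33 to 0.10, CLOCK interaction -0.32 to 0.13, NR1D1 interaction -0.63 to 0.042 and NR1D1 in the combination against EC359 -0.43 to 0.25. The DBP call with the combination was lost with total counts (1.00, just under the threshold) and without vehicle replicate 2 (0.97). The cause was not tested. The labels number the libraries 1 and 2 in each group without saying what a number shares; same-numbered deviations correlated from -0.17 (EC359 and combination) to 0.23 (vehicle and EC359), and a replicate block left 1, 7, 8, 2, 6 and 0 clock genes called in the 6 comparisons, as without it. A crossed block, chosen after seeing the data, gave 1, 7, 7, 2, 6 and 0. The HLF call was lost under the block. Counts were low for PER2 (from 30 reads) and HLF (from 2).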
